A study of Mus musculus with 12 samples.

Results

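The genes described here are 8 members of the MHC class II antigen presentation pathway, H2-Aa, H2-Ab1, H2-Eb1, H2-DMa, H2-DMb1, H2-DMb2, Cd74, and Ciita. They were taken by symbol from a table of RNA-seq counts that lists 35303 symbols, and all 8 were among the 17676 genes with enough counts to be tested. The cells were myeloid-derived suppressor cells (MDSCs), immunosuppressive myeloid cells, grown from the bone marrow of young adult female C57BL/6 mice with GM-CSF and IL-6 and then purified as CD11b+Gr1+ cells. Each of 3 groups had 4 libraries: unmodified MDSCs (MDSC), MDSCs with blank PLGA nanoparticles (NPs) attached to their surface by azide-alkyne click chemistry (MDSC-NP-Blk), and MDSCs with rapamycin-loaded NPs attached in the same way (CITED). All 12 libraries carry the genotype label WT and the treatment label IL6, and in each group the cells were cultured with IL-6 for a day before RNA was extracted. Rapamycin is an inhibitor of the mTORC1 kinase complex. The comparison of CITED with MDSC-NP-Blk therefore asks what the loaded drug added to the particle, and that of MDSC-NP-Blk with MDSC asks what the conjugation and the particle did. A group given free rapamycin is not analysed here, and the methods do not say whether the unmodified MDSCs were also fed the azide sugar. The labels give the tissue of every library as CNS, but by the methods these were bone marrow cells in culture. The titles call the 4 libraries of a group biological replicates without saying whether they came from separate mice or cultures, so p-values here measure the spread between these libraries.

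MHC class II molecules present peptides from endosomes and lysosomes to CD4+ T cells. They are made as alpha-beta pairs with the invariant chain, the product of Cd74, in the groove. Proteases trim the invariant chain down to a short fragment, CLIP, and the nonclassical molecule H2-DM then exchanges CLIP for antigenic peptide. Ciita does not bind DNA itself. It is a co-activator that is recruited to the promoters of class II genes, of Cd74, and of the H2-DM genes by factors bound to the X and Y boxes, among them the RFX complex, CREB1, and NF-Y. Dendritic cells, macrophages, and B cells are the professional class II presenters. MDSCs are better known for suppressing T cells, and their class II levels are usually low.

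The 6 H2 genes lie within the class II region of mouse chromosome 17 (GRCm39), from H2-DMa, which starts at 34338515, to H2-Eb1, which ends at 34535648. Ciita lies on chromosome 16 from 10297923 to 10347694 on the + strand and has 19 exons in its canonical transcript. The promoter windows of 21734 protein-coding genes, 250 bases before and 50 bases after the annotated start, were searched for the letters of an X box (AGNNAC, any 3 bases, TG) followed on the same strand by those of a Y box (ATTGG) 10 to 30 bases downstream. On either strand, 14.15% of the windows held the X letters, 39.9% held the Y letters, and 67 windows, or 0.308%, held the pair. On the sense strand alone, 32 windows, or 0.147%, held the pair. It was found on the sense strand of H2-Ab1, H2-Eb1, and H2-DMa, 3 of the 8 members. It was also found in 2 of 4 other class II genes searched, H2-Ob and H2-Eb2. A missing pair says only that these letters were not in the window of that transcript, since the search allowed no other spelling. The stretches of H2-Ab1 (chr17:34482108-34482175, + strand) and H2-Eb1 (chr17:34524734-34524801, + strand) are printed below because they hold the promoter elements through which Ciita is known to act, with the X letters and the Y letters in capitals. Both lie in no annotated exon, upstream of the canonical start and within an intron of longer annotated transcripts of the same gene. The X letters begin 60 bases before the start in H2-Ab1 and 64 bases before it in H2-Eb1, and 22 bases separate X from Y in each. The H2-DMa pair begins 73 bases before the canonical start, within an exon of other H2-DMa transcripts, and its sequence is not printed.
H2-Ab1: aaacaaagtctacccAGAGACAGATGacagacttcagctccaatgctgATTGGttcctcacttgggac
H2-Eb1: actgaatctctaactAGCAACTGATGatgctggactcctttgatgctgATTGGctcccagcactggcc

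The libraries held 20604809 to 37855478 gene counts each. Normalized counts below are counts scaled by library size and TMM factor (trimmed mean of M values) to the mean library. This factor lay between 1.118 and 1.148 for MDSC, between 0.938 and 0.947 for MDSC-NP-Blk, and between 0.921 and 0.944 for CITED. Together, the 8 members took 0.133% to 0.148% of the counts for MDSC, 0.153% to 0.166% for MDSC-NP-Blk, and 0.140% to 0.145% for CITED. All 6 defining MDSC markers (Itgam, Ly6g, Ly6c1, Ly6c2, S100a8, and S100a9) were detected. Within MDSC-NP-Blk, replicates 1 and 4 resembled each other, as did replicates 2 and 3 (chi-square per degree of freedom of 5.69 and 5.91, against 15.7 to 21.8 for the other pairs).

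The classical class II chains were expressed in all 3 groups, and all 3 transcripts rose in both NP groups compared to MDSC after TMM scaling. In CITED, none of these rises passed with library size alone (H2-Aa 0.08, H2-Ab1 −0.08, and H2-Eb1 0.00047 on the log2 scale), and in MDSC-NP-Blk that of H2-Aa (0.23) passed and those of H2-Ab1 (0.11) and H2-Eb1 (0.03) did not. H2-Aa, which encodes the alpha chain of the I-A molecule, had normalized counts of 3914, 4252, 3843, and 3965 for MDSC, 5746, 5720, 5378, and 5594 for MDSC-NP-Blk, and 5451, 5450, 4862, and 4703 for CITED. Every library of either NP group was above every MDSC library. The log2 fold change against MDSC was 0.49 in MDSC-NP-Blk (SE 0.0532, adjusted p = 2.1e-09, edgeR's quasi-likelihood test) and 0.36 in CITED (SE 0.0533, adjusted p = 7.3e-07). The NP groups overlapped, and CITED against MDSC-NP-Blk gave −0.13, which did not pass (adjusted p = 0.0715, 95% interval −0.24 to −0.03). This difference passed without CITED replicate 1 (−0.16, adjusted p = 0.0335), CITED replicate 2 (−0.16, adjusted p = 0.0390), or MDSC-NP-Blk replicate 3 (−0.15, adjusted p = 0.0425), and with library size alone (−0.15, adjusted p = 0.0399). In a bulk sample, a change in the number of expressing cells cannot be told apart from a change in RNA per cell.

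H2-Ab1, which encodes the I-A beta chain, had normalized counts of 3640, 3667, 3704, and 3459 for MDSC, 5176, 4307, 4216, and 5099 for MDSC-NP-Blk, and 4168, 4097, 4022, and 4296 for CITED. Here, the MDSC-NP-Blk libraries split into a high pair, replicates 1 and 4, and a low pair, replicates 2 and 3, and the low pair was close to CITED. The log2 fold change against MDSC was 0.38 in MDSC-NP-Blk (adjusted p = 1.8e-06) and 0.20 in CITED (adjusted p = 0.00518). The rise in CITED was 0.0016 after a correction for transcript length, which is described further on, and did not pass. CITED was lower than MDSC-NP-Blk by this test (−0.18, SE 0.0578, adjusted p = 0.0213), although the libraries of these groups overlapped. It no longer passed without MDSC-NP-Blk replicate 1 (−0.13, adjusted p = 0.103) or replicate 4 (−0.14, adjusted p = 0.113), and without CITED replicate 2 (adjusted p = 0.0567) or replicate 3 (adjusted p = 0.0733).

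H2-Eb1, which encodes the I-E beta chain, had normalized counts of 3775, 4326, 3763, and 4073 for MDSC, 5096, 4839, 4575, and 4934 for MDSC-NP-Blk, and 4760, 4975, 4768, and 4766 for CITED. Its rise was of like size in both NP groups (0.29 in MDSC-NP-Blk, adjusted p = 2.4e-05, and 0.27 in CITED, adjusted p = 3.4e-05). The difference between CITED and MDSC-NP-Blk was −0.01, with a 95% interval from −0.12 to 0.09 (adjusted p = 0.930). H2-Aa and H2-Eb1 lie on opposite strands and their annotated spans overlap, and the sources used here do not say whether counting used strand. H2-Ea, the gene of the I-E alpha chain, had 0 counts in all 12 libraries. Levels of H2-Eb1 RNA thus do not show that an I-E molecule was made.

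**Figure D1:**
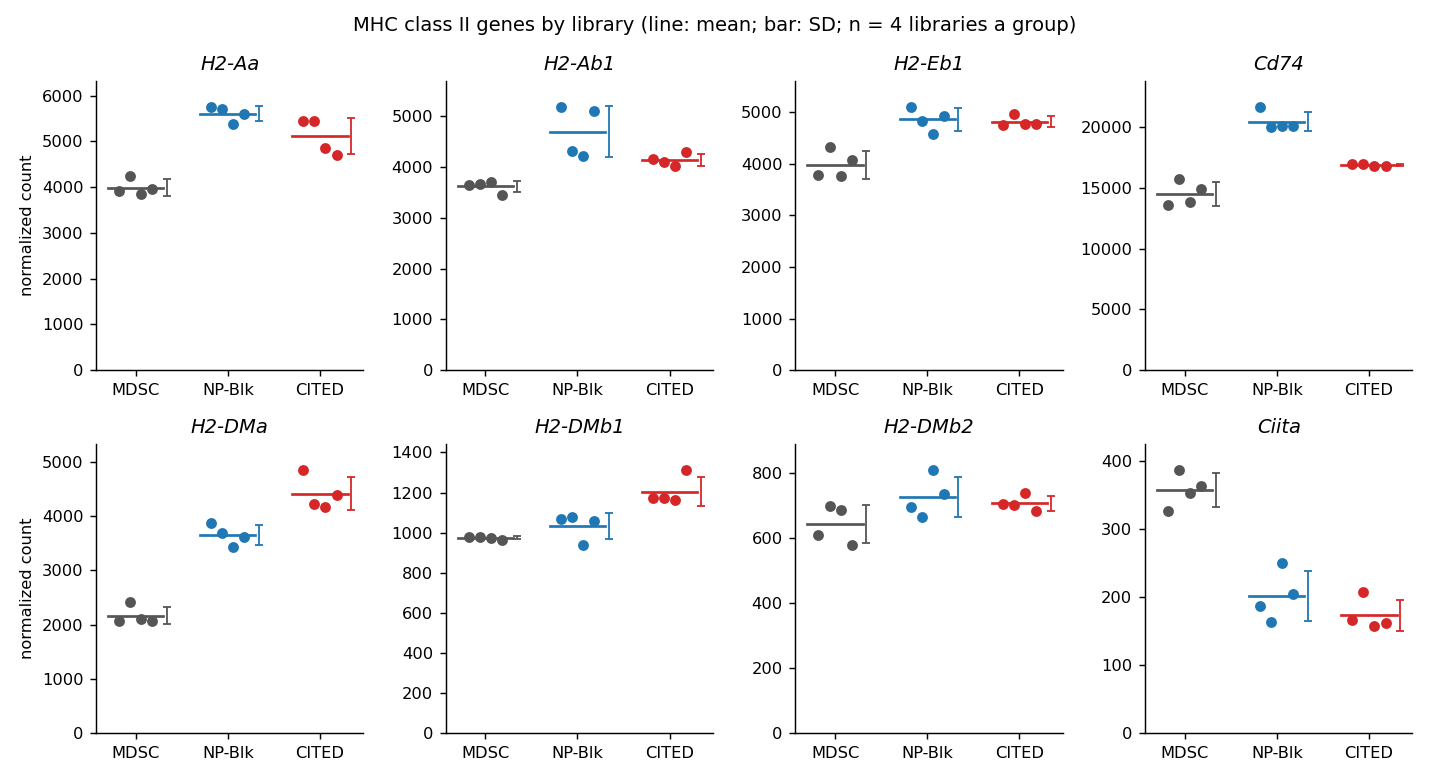
Normalized count (y axis, from 0) of each class II gene in every library of MDSC, MDSC-NP-Blk (NP-Blk), and CITED, with points for libraries, a line for the mean, and a bar for the SD (n = 4 a group). Ciita lies between 327 and 387 in MDSC and at or below 251 in both NP groups, whereas H2-Aa, H2-Ab1, H2-Eb1, Cd74, and H2-DMa lie lower in MDSC than in either NP group after TMM scaling.

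Cd74 had the highest level of the 8 genes and was highest with blank NPs. Its normalized counts were 13635, 15750, 13830, and 14896 for MDSC, 21650, 20058, 20088, and 20109 for MDSC-NP-Blk, and 16979, 16994, 16777, and 16849 for CITED. The 3 groups did not overlap, and the CITED libraries lay within a narrow band (16900 ± 105, SD, n = 4) between the other two groups. Cd74 rose by 0.50 on the log2 scale in MDSC-NP-Blk (SE 0.0469, adjusted p = 1.0e-10) and by 0.22 in CITED (SE 0.0469, adjusted p = 0.000189), compared to MDSC. The rise in CITED did not pass after the length correction (0.04) and turned to −0.06 with library size alone. CITED was lower than MDSC-NP-Blk in all 4 libraries (−0.28, SE 0.0469, adjusted p = 2.2e-05).

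The peptide exchange factor H2-DM is a pair of an alpha chain, from H2-DMa, and a beta chain, from H2-DMb1 or H2-DMb2, and the chains moved unequally. H2-DMa had normalized counts of 2073, 2408, 2106, and 2074 for MDSC, 3881, 3685, 3427, and 3619 for MDSC-NP-Blk, and 4851, 4232, 4174, and 4394 for CITED. The 3 groups did not overlap, with CITED on top. H2-DMa rose by 0.75 in MDSC-NP-Blk (SE 0.0589, adjusted p = 1.0e-12) and by 1.03 in CITED (SE 0.0590, adjusted p = 1.6e-16), and it was higher in CITED than in MDSC-NP-Blk (0.27, SE 0.0581, adjusted p = 0.000501). The log2 fold change in CITED against MDSC was 0.98 without CITED replicate 1, which had the highest value.

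H2-DMb1 had normalized counts of 978, 979, 975, and 964 for MDSC, 1066, 1076, 936, and 1057 for MDSC-NP-Blk, and 1174, 1172, 1160, and 1312 for CITED. MDSC-NP-Blk overlapped MDSC, and CITED was above both. Against MDSC, H2-DMb1 rose in CITED (0.31, SE 0.0684, adjusted p = 0.000295), and MDSC-NP-Blk gave 0.09 (adjusted p = 0.347, 95% interval −0.05 to 0.23). The rise in CITED no longer passed with the length correction (0.13) or with library size alone (0.03). CITED was above MDSC-NP-Blk by 0.22 (adjusted p = 0.0164), and it no longer passed without MDSC-NP-Blk replicate 3 (0.18, adjusted p = 0.0753) or CITED replicate 4 (0.18, adjusted p = 0.0966).

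H2-DMb2 had normalized counts of 609, 700, 688, and 578 for MDSC, 696, 666, 810, and 736 for MDSC-NP-Blk, and 705, 701, 740, and 683 for CITED. It passed in none of the 3 comparisons. The log2 fold change against MDSC was 0.14 in CITED (adjusted p = 0.191, 95% interval −0.03 to 0.30) and 0.17 in MDSC-NP-Blk (adjusted p = 0.0923), and CITED against MDSC-NP-Blk gave −0.04 (adjusted p = 0.818). Without MDSC-NP-Blk replicate 2, the value for MDSC-NP-Blk was 0.22 and passed (adjusted p = 0.0476). The beta chain genes are near copies. Of the 31-base words in the transcripts of H2-DMb1, 37.6% also occur in those of H2-DMb2, so how reads were divided between them is uncertain. Summed into a single row, they had normalized counts of 1618 ± 64.7 for MDSC, 1761 ± 22.9 for MDSC-NP-Blk, and 1912 ± 56.6 for CITED (SD, n = 4 each). The sum rose in CITED against MDSC (0.24, SE 0.0563, adjusted p = 0.000522), and it did not pass in MDSC-NP-Blk against MDSC (0.12, adjusted p = 0.0898) or in CITED against MDSC-NP-Blk (0.12, adjusted p = 0.140).

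Ciita, the co-activator of the other 7 genes, fell in both NP groups. Its normalized counts were 327, 387, 353, and 363 for MDSC, 187, 164, 251, and 204 for MDSC-NP-Blk, and 166, 207, 157, and 162 for CITED. Every library of either NP group was below every MDSC library, and the NP groups overlapped. The log2 fold change against MDSC was −0.83 in MDSC-NP-Blk (SE 0.124, adjusted p = 9.7e-07) and −1.05 in CITED (SE 0.126, adjusted p = 1.1e-08). CITED against MDSC-NP-Blk gave −0.21 (adjusted p = 0.282), with a 95% interval from −0.48 to 0.05. The raw counts behind these values ran from 133 to 417 a library, so Ciita was the least precisely measured of the 8. Its standard error was 0.124 to 0.131, against 0.0469 to 0.0814 for the other members.

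B cells express Ciita and class II as well, and a low B cell signal moved in the same direction as Ciita. Of 8 B cell markers, Vpreb1 was not analysed here and 7 were tested. Their summed level was 13.0 to 14.6 CPM (counts scaled to a fixed library total) for MDSC, 7.83 to 10.5 CPM for MDSC-NP-Blk, and 2.88 to 4.61 CPM for CITED. In CITED against MDSC, 5 of the 7 fell, among them Cd79b (−1.97, adjusted p = 6.2e-09) and Cd79a (−1.44, adjusted p = 3.6e-05), which encode parts of the B cell receptor, and Pax5 (−3.21, adjusted p = 3.4e-08), a B lineage factor. In MDSC-NP-Blk against MDSC, 0 of the 7 passed with edgeR, although 3 were lower at an unadjusted p below 0.05 and 1 passed with DESeq2. In CITED against MDSC-NP-Blk, 4 fell. Of all genes tested, 22.2% fell in CITED against MDSC, 18.6% in MDSC-NP-Blk against MDSC, and 11.4% in CITED against MDSC-NP-Blk. Igll1 was at 0 in every library of MDSC and CITED. The 11 conventional dendritic cell markers summed to 525 to 556 CPM for MDSC, 384 to 399 CPM for MDSC-NP-Blk, and 448 to 491 CPM for CITED, and most of this sum was Itgax. The 5 plasmacytoid dendritic cell markers reached at most 1.35 CPM in every library. The part of these cells in the fall of Ciita was not tested.

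In CITED against MDSC, 7 of the 8 members passed an adjusted p of 0.05, 6 higher and 1 lower, and 2 of them, H2-DMa and Ciita, were also past an absolute log2 fold change of 1 and were called differentially expressed. Over all 17676 genes tested, 44.5% passed, 22.2% higher and 22.2% lower, and 9.99% were called, and among the 10555 genes with a mean normalized count above 50, 67.9% passed. The libraries of the groups did not overlap for 7 members and for 42.5% of all genes tested. In MDSC-NP-Blk against MDSC, 6 members passed, 5 higher and 1 lower, where 38.6% of all genes tested did so, 19.9% higher and 18.6% lower. None was called by edgeR, where 4.74% of genes were, although 7 had an unadjusted p under 0.05, and DESeq2 also called none. The libraries of these groups did not overlap for 6 members and for 35.6% of genes. These comparisons share the MDSC libraries. In CITED against MDSC-NP-Blk, 4 members passed, H2-DMa and H2-DMb1 higher and H2-Ab1 and Cd74 lower, where 22% of genes tested passed, 10.5% higher and 11.4% lower. None was called by edgeR, where 2.65% of genes were, although 5 had an unadjusted p under 0.05, and DESeq2 also called none. H2-DMa, H2-DMb1, and Cd74 did not overlap in this comparison, as for 21.2% of genes. The median log2 fold change of the 8 members was 0.25, 0.33, and −0.09 in the 3 comparisons in this order, and that of all genes tested was −0.05, −0.03, and 0. Most genes with a mean normalized count above 50 passed against MDSC as well (67.9% in CITED and 60.4% in MDSC-NP-Blk), and 34.9% passed between the NP groups. Passing against MDSC alone therefore does not set a gene apart. The shares of these genes that passed higher were 35.6%, 32.1%, and 16.9% in the same order, beside 6, 5, and 2 of the 8 members. Whether the members differ from other genes in this was not tested.

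Transcript length moved with these changes. Across 10542 genes, which are not independent replicates, Spearman's rho between length and expression relative to the mean of all libraries was 0.22 to 0.35 in the MDSC libraries and −0.34 to −0.19 in the CITED libraries. In MDSC-NP-Blk, rho was −0.42 and −0.24 in replicates 1 and 4 and −0.047 and 0.092 in replicates 2 and 3. The canonical transcripts of the 7 members other than Ciita have 1128 to 1697 bases, and that of Ciita has 7483. After a loess correction for length in each library, Ciita was still lower against MDSC in CITED (−0.75, adjusted p = 2.6e-06) and in MDSC-NP-Blk (−0.63, adjusted p = 4.5e-05). H2-DMa was still higher in CITED (0.82, adjusted p = 7.9e-18) and in MDSC-NP-Blk (0.54, adjusted p = 2.8e-12), and neither gene was then past an absolute log2 fold change of 1. In CITED against MDSC, H2-Aa (0.15, adjusted p = 0.00709) and H2-Eb1 (0.12, adjusted p = 0.0341) also passed, whereas H2-Ab1 (0.0016), Cd74 (0.04, adjusted p = 0.445), and H2-DMb1 (0.13, adjusted p = 0.111) did not. In MDSC-NP-Blk against MDSC, the same 6 members passed in the same directions, with Cd74 at 0.32, H2-Aa at 0.28, H2-Ab1 at 0.17, and H2-Eb1 at 0.14. The differences between CITED and MDSC-NP-Blk moved little (Cd74, −0.28, and H2-DMa, 0.28), and H2-Aa passed there in addition (−0.13, adjusted p = 0.0437).

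**Figure D2:**
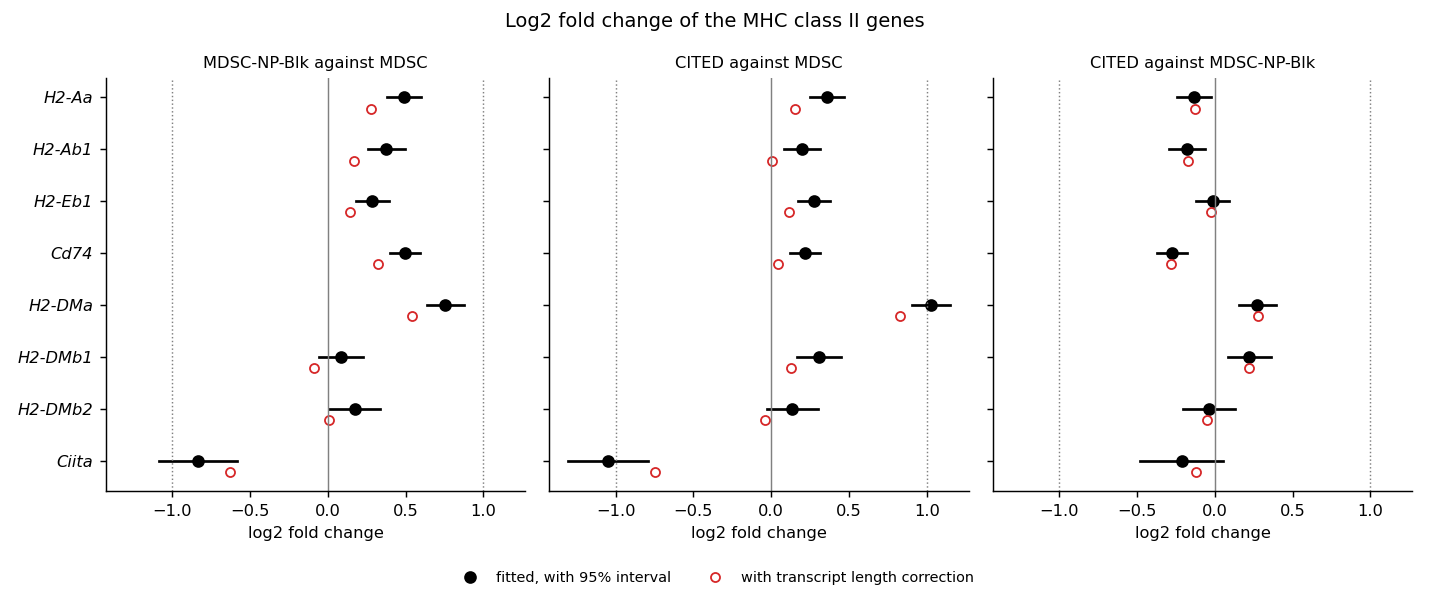
Log2 fold change (x axis) of each class II gene in MDSC-NP-Blk and in CITED, each set against MDSC, and between the NP groups, as fitted (filled, with a 95% interval) and after a correction for transcript length (open), with dotted lines at −1 and 1. Ciita lies at −0.83 and −1.05 against MDSC and H2-DMa at 0.75 and 1.03, and the correction brings the values of the first and second panel toward 0, with H2-DMb1 in the first and H2-DMb2 in the second passing to the other side of it.

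The direction of the smaller changes also depended on scaling. With library size alone and no TMM factor, the median log2 fold change against MDSC of the 10555 genes above was −0.26 in both CITED and MDSC-NP-Blk, as compared to 0.02 and 0.0025. The median of the members was then −0.03 and 0.07, and H2-Ab1, H2-DMb2, and Cd74 in CITED, and H2-DMb1 and H2-DMb2 in MDSC-NP-Blk, changed sign. H2-DMa passed higher and Ciita passed lower in both comparisons on this scale too.

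Ratios within a library do not depend on the scaling, but they were not corrected for transcript length, whose trend differed between the groups. Ciita has 7483 bases, against 1128 to 1697 for the classical chains. The part of length in the ratio of Ciita to these chains was not tested. For each Ciita count there were 31.6 to 34.6 counts of H2-Aa, H2-Ab1, and H2-Eb1 together for MDSC, 56.5 to 90.8 for MDSC-NP-Blk, and 70.0 to 86.8 for CITED. The ranges of the NP groups overlapped, and both lay above that of MDSC. The ratio of H2-DMa to the sum of H2-DMb1 and H2-DMb2 was 1.27 to 1.43 for MDSC, 1.96 to 2.20 for MDSC-NP-Blk, and 2.20 to 2.58 for CITED, where the lowest CITED library lay just below the highest MDSC-NP-Blk library. H2-DMa relative to the 3 classical chains took steps without overlap, being 0.180 to 0.197 for MDSC, 0.232 to 0.248 for MDSC-NP-Blk, and 0.291 to 0.337 for CITED. Cd74 relative to the classical chains was 1.20 to 1.30 for MDSC, 1.29 to 1.42 for MDSC-NP-Blk, and 1.17 to 1.23 for CITED. These ratios are given as descriptions, without a test.

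**Figure D3:**
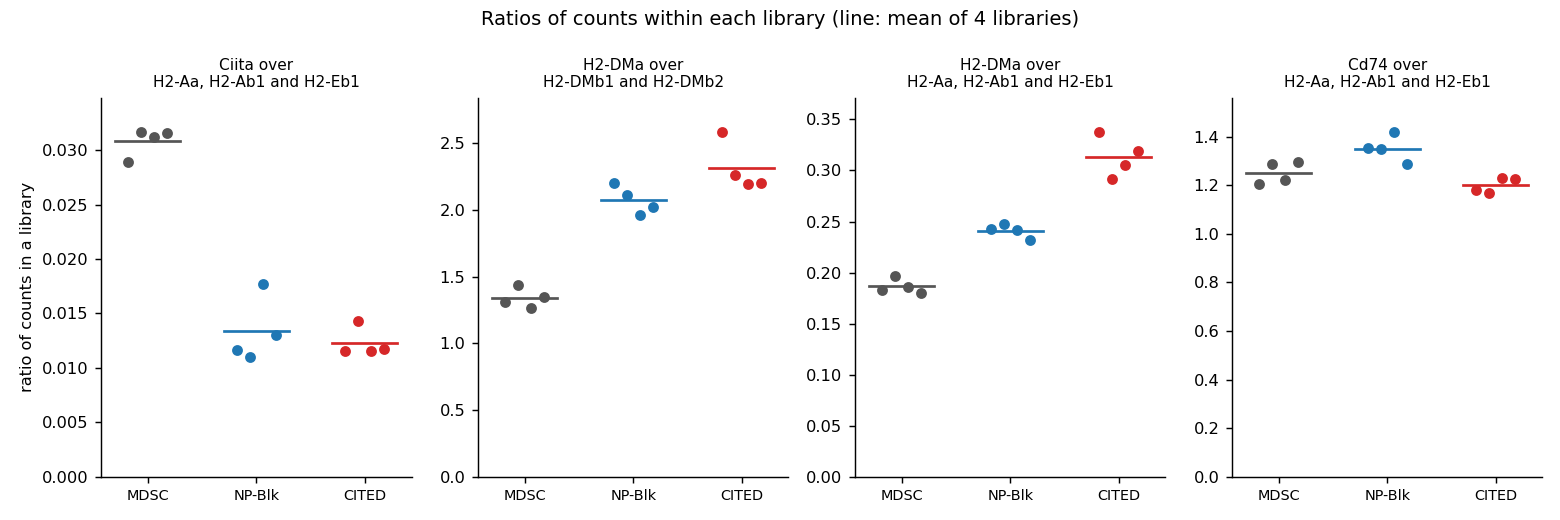
Ratio of counts within each library (y axis, from 0) for 4 pairs of class II genes or sums in MDSC, MDSC-NP-Blk (NP-Blk), and CITED, with points for libraries and lines for the means of 4. H2-DMa over the 3 classical chains steps up from at most 0.197 in MDSC to at least 0.291 in CITED, and Ciita over the same chains is 0.0289 to 0.0316 in MDSC and at most 0.0177 in both NP groups. The counts are not corrected for transcript length.

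Per kilobase of transcript, the 8 genes spanned more than 2 orders of magnitude. In MDSC, the mean level was 413 CPM per kb for Cd74, 144 for H2-Aa, 121 for H2-Ab1, 95.5 for H2-Eb1, 76.5 for H2-DMa, 28.2 for H2-DMb1, 17.9 for H2-DMb2, and 1.94 for Ciita (n = 4 each). No neighbors in this order overlapped. The ends of the order were the same in each group, and the place of H2-DMa changed. In MDSC-NP-Blk, H2-DMa (129 ± 6.63 CPM per kb, SD) was above H2-Eb1 (116 ± 5.23), with overlapping libraries. In CITED, H2-DMa (156 ± 10.8) was above H2-Ab1 (139 ± 3.92), without overlap, and below H2-Aa (184 ± 14.1), with overlap (SD, n = 4 each). Ciita was at 1.09 CPM per kb in MDSC-NP-Blk and 0.942 in CITED.

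**Figure D4:**
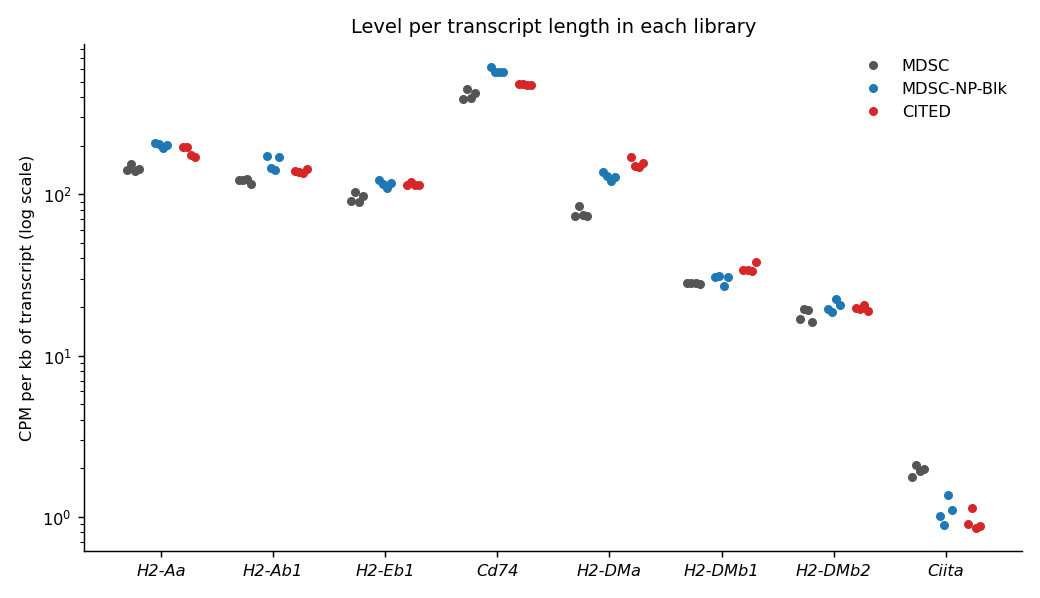
Level of each class II gene in CPM per kb of its canonical transcript (y axis, log scale) in every library of MDSC, MDSC-NP-Blk, and CITED, with 1 point a library. Cd74 lies highest and Ciita lowest in every library, and H2-DMa moves from 76.5 in MDSC to 156 in CITED, past H2-Eb1 and H2-Ab1.

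The other class II genes were low. H2-Ea, whose promoter is deleted in C57BL/6 mice, had 0 counts in all 12 libraries, which allows a share of at most 1.46e-05% of a library from counting error alone. H2-Oa and H2-Ob encode H2-O, an inhibitor of H2-DM that is best known in B cells. H2-Oa had a normalized count of 244 ± 44.1 for MDSC, 410 ± 62.0 for MDSC-NP-Blk, and 300 ± 33.98 for CITED (SD, n = 4 each). It rose in MDSC-NP-Blk against MDSC (0.75, adjusted p = 4.8e-06) and in CITED against MDSC (0.31, adjusted p = 0.0455), and it was lower in CITED than in MDSC-NP-Blk (−0.44, adjusted p = 0.00647). In CITED against MDSC, H2-Oa no longer passed with the length correction (0.11, adjusted p = 0.472), with library size alone, or with DESeq2. H2-Ob was at 76.9 ± 6.43, 85.8 ± 19.1, and 55.9 ± 6.44 in the same order and was lower in CITED than in MDSC-NP-Blk (−0.61, adjusted p = 0.0383). The H2-O genes and H2-DMa thus differed in opposite directions between the NP groups. H2-Eb2 averaged 11.8, 6.68, and 5.72 normalized counts and passed in no comparison.

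Among the factors that bind the class II promoter, changes were small and mixed. Of 7 genes (Rfx5, Rfxank, Rfxap, Nfya, Nfyb, Nfyc, and Creb1), 2 rose and 1 fell in CITED against MDSC, 3 rose and 1 fell in MDSC-NP-Blk against MDSC, and 2 fell in CITED against MDSC-NP-Blk. Of all genes tested, 22.2% rose and 22.2% fell in the first comparison, 19.9% and 18.6% in the second, and 11.4% fell in the third. None of the 7 was called, by DESeq2 either, and their median log2 fold change was 0.14, 0.10, and −0.03. Creb1, which encodes a factor of the X box, fell in each after TMM scaling (−0.49, −0.23, and −0.26), and it and the next gene were chosen after their values were seen. Rfx5, the DNA-binding subunit of RFX, rose by 0.25 in CITED (adjusted p = 0.00884) and 0.28 in MDSC-NP-Blk (adjusted p = 0.00389). After the length correction, Creb1 was at −0.15 in CITED against MDSC (adjusted p = 0.0246) and at 0.01 in MDSC-NP-Blk against MDSC, where it did not pass and 4 genes of the list rose. On the scale of library size alone, 0 of the 7 rose and 3 fell in each comparison with MDSC.

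Most genes listed as regulators of Ciita or parts of interferon γ signaling rose in both NP groups, while Ciita fell. Of 11 genes (Ifngr1, Ifngr2, Jak1, Jak2, Irf1, Irf4, Irf8, Spi1, Usf1, Prdm1, and Socs1), 9 rose and none fell in CITED against MDSC, where 22.2% of all genes tested rose and 35.6% of those with a mean normalized count above 50, as all 11 have. In MDSC-NP-Blk against MDSC, 10 rose and none fell, where these shares were 19.9% and 32.1%. The median log2 fold change was 0.62 and 0.52. Between CITED and MDSC-NP-Blk, 3 rose and none fell (median 0.06), where the shares that rose were 10.5% and 16.9%. Socs1, an inhibitor of JAK kinases that is itself induced by interferon γ, was called in both comparisons with MDSC. Its normalized count was 952 ± 106 for MDSC, 2036 ± 61.0 for MDSC-NP-Blk, and 2487 ± 155 for CITED (SD, n = 4 each). The log2 fold change was 1.38 in CITED (SE 0.0684, adjusted p = 2.9e-18) and 1.09 in MDSC-NP-Blk (SE 0.0683, adjusted p = 3.9e-15). Another 2 genes of this list were chosen after their values were seen. Irf1, a known activator of a Ciita promoter, rose by 0.88 in CITED and 0.75 in MDSC-NP-Blk. Prdm1, a known repressor of Ciita, rose by 0.62 and 0.81. With the length correction, 11 genes of this list rose in each of these comparisons, and with library size alone, 7 rose and 2 fell in CITED, and 9 rose and 1 fell in MDSC-NP-Blk, where Socs1 was no longer called.

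Most of the proteases and other factors that prepare antigen and invariant chain rose in CITED against both other groups. All 11 genes of this list (Ctss, Ctsl, Ctsb, Ctsd, Ctsh, Ctsz, Ctsf, Lgmn, Ifi30, Cst3, and Sppl2a) rose in CITED against MDSC (median log2 fold change 0.67), where 22.2% of all genes tested rose. In CITED against MDSC-NP-Blk, 9 rose (median 0.40), where 10.5% of all genes tested and 16.9% of those above a mean normalized count of 50 rose. In MDSC-NP-Blk against MDSC, 9 rose and 2 fell (median 0.30), where 19.9% of all genes tested rose and 18.6% fell. After the length correction, 11, 9, and 8 genes rose in these comparisons. On the scale of library size alone, 11 and 9 still rose in CITED, but 4 rose and 2 fell in MDSC-NP-Blk against MDSC (median 0.03), and 1 gene in place of 3 was called in CITED against MDSC. Ctsd, a lysosomal aspartic protease, had normalized counts of 54724 ± 1332 for MDSC, 65249 ± 1462 for MDSC-NP-Blk, and 122203 ± 3748 for CITED (SD, n = 4 each), and it was called in CITED against MDSC (1.16, SE 0.0387, adjusted p = 1.2e-22). Ctsl, a cysteine protease that cleaves the invariant chain in thymic epithelium, was at 9410 ± 162, 13752 ± 638, and 22278 ± 995 and was also called there (1.24, SE 0.0462, adjusted p = 2.0e-21). Ctsf, which cleaves the invariant chain in macrophages, was low, at 11.5 ± 3.12, 46.3 ± 14.2, and 59.8 ± 18.8, and it was called in CITED (2.36, adjusted p = 7.7e-07) and in MDSC-NP-Blk (1.98, adjusted p = 2.1e-05) against MDSC. Ctsd (0.91, adjusted p = 8.2e-19) and Ctsl (0.70, adjusted p = 5.2e-14) were also higher in CITED than in MDSC-NP-Blk. Another 2 genes were chosen after their values were seen. Ctss, the main protease for the last steps of invariant chain cleavage in these lineages, rose by 0.74 in CITED and 0.30 in MDSC-NP-Blk. Ifi30, a thiol reductase that unfolds antigen, rose by 0.64 and 0.25.

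Of 7 genes for class II turnover at the surface and for tetraspanins that associate with class II (Marchf1, Marchf8, Cd83, Cd9, Cd37, Cd63, and Cd82), 6 rose in CITED against MDSC, where 22.2% of all genes tested and 35.6% of those above a mean normalized count of 50 rose. In MDSC-NP-Blk against MDSC, 6 rose and 1, Marchf8, fell (19.9% and 32.1% of genes rose), and in CITED against MDSC-NP-Blk 5 rose (10.5% and 16.9%). The tetraspanins Cd37 (1.21, SE 0.0488, adjusted p = 1.5e-20) and Cd9 (1.03, SE 0.0456, adjusted p = 1.6e-19) were called in CITED against MDSC. After the length correction, Cd9 was at 0.84 and no longer called, and Marchf8 no longer passed in MDSC-NP-Blk against MDSC (−0.06). Neither tetraspanin was called with library size alone. Marchf1, a ubiquitin ligase that removes class II from the surface, and Cd83, which protects class II from Marchf1, rose together in CITED (0.48 and 0.69) and in MDSC-NP-Blk (0.23 and 0.52). These genes were chosen after their values were seen. Mif, the cytokine that binds Cd74, and Cd44, Cxcr2, and Cxcr4, which act with Cd74 as its receptors, all rose in MDSC-NP-Blk against MDSC, and 3 of these 4 (Mif, Cd44, and Cxcr2) rose in CITED. Of all genes tested, 19.9% and 22.2% rose in these comparisons, and 32.1% and 35.6% of those above a mean normalized count of 50. In CITED against MDSC, Mif went from 0.34 to 0.05 after the length correction (adjusted p = 0.543), where 2 of the 4 passed, and with library size alone 1 rose and 1 fell, whereas DESeq2 passed all 4. Mif and Cxcr4 were lower in CITED than in MDSC-NP-Blk, where DESeq2 passed 1 gene of the list. Of 6 other genes within the class II region (Psmb8, Psmb9, Tap1, Tap2, Brd2, and Btnl2), which mostly serve class I presentation, 5 rose in each comparison with MDSC, against the shares of all genes given above, and none was called, by edgeR or DESeq2. On the scale of library size alone, 4 rose in CITED and 3 in MDSC-NP-Blk.

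**Figure D5:**
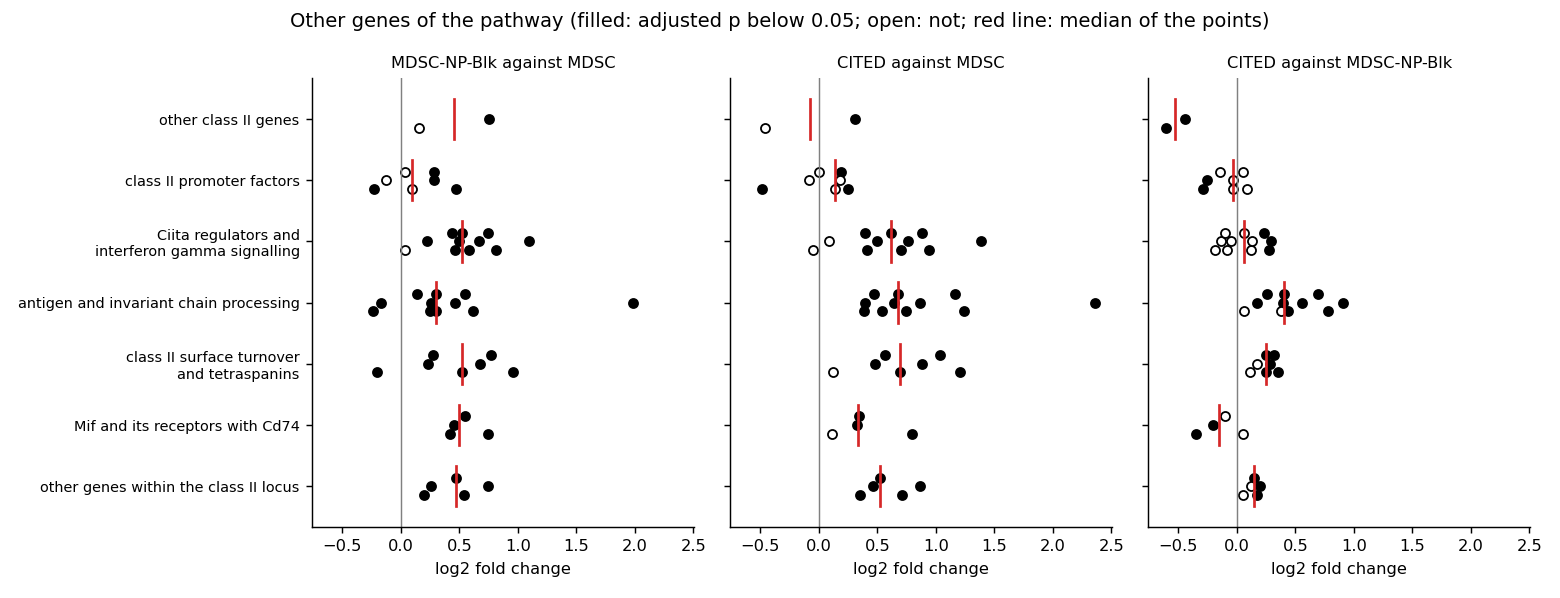
Log2 fold change (x axis) of the genes of 7 lists around the class II pathway in MDSC-NP-Blk and in CITED, each set against MDSC, and between the NP groups, with 1 point a gene, filled where the adjusted p was below 0.05, and a red line at the median of the points. H2-Ea, H2-Eb2, and Btnl2 are left out for low counts. In the middle panel, all 11 genes for antigen and invariant chain processing lie to the right of 0, up to 2.36 for Ctsf, after TMM scaling.

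Within the 8 genes, the group levels of Ciita ran opposite to the rest. The mean standardized log2 CPM of the members over the 12 libraries correlated with H2-Eb1 (Pearson's r = 0.96), H2-Aa (0.94), H2-DMa (0.90), Cd74 (0.89), and H2-Ab1 (0.87), less with H2-DMb2 (0.69) and H2-DMb1 (0.54), and negatively with Ciita (−0.81). Each gene is itself part of this mean, and the libraries share their groups. After the group means were removed, r was 0.89 between H2-Eb1 and Cd74 and −0.53 between H2-DMb1 and H2-DMb2. Between Ciita and the other 7 genes it was then −0.63 (H2-DMb1) to 0.56 (H2-DMb2), and above 0 for 4 of them. Of 10547 other genes, the 10 whose pattern was most like the mean were Ackr3, Rpl13a, Rpl41, Rps3, Rps14, Paip2, Rps12, Rpl8, Ube2d3, and Ostf1 (r = 0.974 to 0.986, n = 12). Of these, 6 encode proteins of the ribosome. The first, Ackr3, a scavenger receptor for CXCL12, rose by 1.45 in CITED (adjusted p = 1.8e-05) and 1.66 in MDSC-NP-Blk (adjusted p = 2.6e-06) against MDSC. The mean to which these genes were matched was lower in every MDSC library than in any NP library. A rise against MDSC thus follows from how they were picked, and its p-values are no separate evidence. The match was made without the length correction.

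Markers of the cells in these cultures moved as well. The 6 MDSC markers summed to 23731 to 27178 CPM for MDSC, 32289 to 34362 CPM for MDSC-NP-Blk, and 24719 to 28571 CPM for CITED, and most of this sum was S100a8 and S100a9. The sum of 9 neutrophil markers was 14955 to 15881, 22563 to 22908, and 17407 to 18801 CPM in the same order, and that of 12 monocyte and macrophage markers was 2149 to 2286, 2758 to 2920, and 2476 to 2629 CPM. Both sums were thus lowest in MDSC and highest in MDSC-NP-Blk, the order in which Cd74 lay. Single genes did not all move with their sum. In MDSC-NP-Blk against MDSC, 5 MDSC, 8 neutrophil, and 4 monocyte and macrophage markers rose, and 0, 0, and 7 fell. In CITED against MDSC, 2, 6, and 3 rose in the same lists, and 2, 3, and 8 fell. Of all genes tested, 19.9% rose and 18.6% fell in the former, and 22.2% rose and 22.2% fell in the latter. The 9 mast cell, basophil, and eosinophil markers summed to 1751 to 1958 CPM for MDSC, 1524 to 1759 CPM for MDSC-NP-Blk, and 703 to 721 CPM for CITED. Of the 9, 4 rose and 1 fell in MDSC-NP-Blk against MDSC, and 1 rose and 7 fell in CITED against MDSC. Within this sum, Epx had a normalized count of 19772 ± 1873 for MDSC and 11647 ± 1670 for MDSC-NP-Blk (SD, n = 4 each). The 5 T cell markers summed to at most 2.94 CPM in any library. The part of these shifts in the class II values was not tested.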

How the data were processed

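The 8 genes and the lists around them were chosen with earlier results of these data known. The authors quantified reads against GENCODE transcripts of GRCm39 with Salmon 1.4.0 (R 4.3.2 is also named in the submitters' processing notes) and deposited whole-number counts per gene symbol from tximport, without normalization or filter; the GENCODE release is not given in the sources used here. Groups and replicate numbers came from the sample titles. A row without a symbol, with 0 counts, was left out. Genes that summed to 2 or more counts in the table (17676) went into the test with edgeR 4.0.16 under R 4.3.3 (TMM, glmQLFit and glmQLFTest, all 12 libraries in 1 fit, group as the only term), and p-values were adjusted over all genes tested by the method of Benjamini and Hochberg. Passed means an adjusted p below 0.05, and called means that the log2 fold change also reached 1 in absolute size. The biological coefficient of variation was 9.03%. Each library held 20604809 to 37855478 counts, so that 3 counts, the smallest share considered, were 7.92e-06% to 1.46e-05%, covering counting error only. In each pathway list, called genes were named, at most 3 in each direction by p, and of each marker list at most 3. Of the lists of Ciita regulators and of B cell markers, 1 gene each is not reported here, and the counts, medians, and sums of these lists are without it. Positions, transcript lengths, shared 31-base words, and promoter sequences came from GRCm39 and GENCODE release M39, since the RefSeq promoter table was of another build. The length correction was a loess curve (span 0.5) in each library. Alternatives were DESeq2 1.42.0, other normalizations, filters, and thresholds, the 8 libraries of a comparison, a replicate block, the length correction, and each library left out. The sum of H2-DMb1 and H2-DMb2 was added after seeing the data. The steps were tested on simulated data. No library was a duplicate of another in its group (chi-square per degree of freedom of at least 4.72), and libraries of different groups were not compared in this way. Figures were drawn with Python 3.11.15 and matplotlib 3.10.9.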

Additional observations from a re-analysis of the deposited data

Results flagged for a closer look

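In 5 of 24 sets of 4 libraries (8 genes in 3 groups), a library stood apart from the other 3 by Dixon's test, which by chance flags about 1 set in 20. These were H2-Eb1 in CITED replicate 2, with a normalized count of 4975, H2-DMa in MDSC replicate 2 (2408), H2-DMb1 in MDSC-NP-Blk replicate 3 (936), H2-DMb1 in CITED replicate 4 (1312), and Cd74 in MDSC-NP-Blk replicate 1 (21650). The nearest libraries of the same groups had normalized counts of 4768, 2106, 1057, 1174, and 20109. For H2-Eb1, H2-DMb1 in CITED, and Cd74 the value lay farther from MDSC than the rest of the group, and for H2-DMa it lay closer to the NP groups. H2-DMb1 in CITED against MDSC-NP-Blk no longer passed without either of its libraries named here, as given with its values above.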

How the results depend on the processing

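With the fold change threshold dropped, 7862, 6815, and 3883 genes and 7, 6, and 4 members were called (always given in the order CITED against MDSC, blank NPs against MDSC, and between the NP groups), and tested against a log2 fold change of 1 (glmTreat), 722, 143, and 59 genes and 0 members were. With library size alone, 1 member was called in CITED against MDSC and 1, Ciita, in MDSC-NP-Blk against MDSC; called genes then split into 272 higher and 1891 lower (580 and 1185 with TMM) in the first and 146 and 1060 (333 and 505) in the second. The same scaling reversed, in CITED against MDSC, H2-Ab1 (−0.0778), H2-DMb2 (−0.139), and Cd74 (−0.0556), and, in MDSC-NP-Blk against MDSC, H2-DMb1 (−0.176, adjusted p = 0.0371) and H2-DMb2 (−0.0884). The length correction left 0 members called in CITED against MDSC and reversed H2-DMb2 there (−0.0392) and H2-DMb1 in MDSC-NP-Blk against MDSC (−0.0898). In CITED against MDSC-NP-Blk, the sign turned for H2-DMb2 when it was summed with H2-DMb1 (0.120) and without MDSC-NP-Blk replicate 3 (range −0.0808 to 0.0187 over the libraries left out), and for H2-Eb1 without MDSC-NP-Blk replicate 1 (range −0.0401 to 0.0110). Of these reversed values, H2-Ab1 and Cd74 in CITED against MDSC were the ones that had passed with TMM. With each library left out, 1631 to 1772, 722 to 892, and 417 to 474 genes were called, and 1 to 2 members in CITED against MDSC, the lower number without CITED replicate 1, where H2-DMa was at 0.98. DESeq2 called 1721, 836, and 492 genes. The deviations of same-numbered libraries had a mean correlation of 0.011, −0.017, and 0.051, against −0.0036, 0.0061, and −0.017 for other pairs. Between the NP groups, same-numbered libraries ran from −0.058 to 0.14. These values do not settle whether same-numbered libraries were paired. With the replicate number as a block, 1621, 766, and 441 genes were called, and H2-Aa passed in addition in CITED against MDSC-NP-Blk (−0.13, adjusted p = 0.0435). Over all alternatives, 484 values of single members kept direction and side of the threshold, 32 no longer passed, 8 newly passed, and 10 turned sign. Low counts limit Ciita most. Where no cause is named here, it was not tested.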
